A study of Mus musculus with 13 samples.

Results

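Enpp2, Foxc1, Dab1 and Srgap3 are 4 of the 12880 genes listed for mouse limb buds whose mean level was lower in Sox9 mutants than in controls at both embryonic stages studied. They were picked by name for that pattern among genes that do not code for cartilage matrix, and all 4 were found by their gene symbol. The mutant and control levels that chose them are therefore given as a description, with no test. A mean that was lower at both stages was found for 2326 genes (18.1%), so the pattern itself is common in the table.

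The data are RNA-seq of 13 libraries, from limb buds of separate embryos at the embryonic days E11.5 and E12.5. At E11.5, 3 controls were Sox9fl/- (1 floxed and 1 deleted allele) and 4 mutants, called Sox9null here, were Sox9-/-. At E12.5, 3 controls were Sox9fl/fl and 3 conditional mutants, called Sox9cKO, were Sox9fl/fl with Prx1CreER, an inducible Cre recombinase under the Prx1 regulatory sequence, which is active in limb bud mesenchyme and not in blood, vessels or ectoderm. The E11.5 controls carry 1 deleted Sox9 allele and the E12.5 controls none, and the mutants differ in kind, so stage cannot be told apart from these genotypes. The sources used here do not say how Cre was induced. Levels are RPKM, in which read numbers are divided by the length of the gene and the depth of the library, so that genes of different length can be compared.

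SOX9 is the transcription factor that drives chondrogenesis, the change of limb mesenchyme into cartilage. The 4 genes belong to different pathways. Enpp2 codes for autotaxin, a secreted enzyme that makes the lipid signal lysophosphatidic acid (LPA), which acts through receptors on nearby cells and is known to act in cartilage formation. Foxc1 codes for a forkhead transcription factor of mesenchyme that takes part in skeletal development. Dab1 codes for the adaptor protein that carries the reelin signal into neurons from the receptors VLDLR and LRP8 (apolipoprotein E receptor). Srgap3 codes for a GTPase-activating protein of the SLIT-ROBO family, which shapes the cell membrane and the actin skeleton beneath it.

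In the GENCODE annotation of GRCm38, Enpp2 (ENSMUSG00000022425) lies on the reverse strand at chr15:54838901-54952892, and Srgap3 (ENSMUSG00000030257) on the reverse strand at chr6:112717971-112947266. Foxc1 (ENSMUSG00000050295) lies on the forward strand at chr13:31806633-31812476, and Dab1 (ENSMUSG00000028519) on the forward strand at chr4:103619359-104744844. Exons of Enpp2 overlap those of Gm26684 on the opposite strand, and exons of Srgap3 those of Gm44081. The sources used here do not say whether the counting used strand, and reads of these overlaps cannot be told apart without it. Dab1 spans 1125486 bases and Foxc1 only 5844, while the combined exons of the 4 genes measure 5779 (Enpp2), 5844 (Foxc1), 7908 (Dab1) and 9852 (Srgap3) bases.

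Sequence just before the start of transcription is shown for Foxc1, Dab1 and Srgap3, the 3 of the 4 genes matched in the RefSeq promoter table (Enpp2 was not matched), because SOX proteins bind short DNA motifs. The sequences are from RefSeq (GRCm38.p6), 5′ to 3′ along the gene's strand, with capitals marking the matches to the motifs searched. The Foxc1 stretch is chr13:31806483-31806632, the Dab1 stretch is chr4:103619250-103619358 and the Srgap3 stretch, on the reverse strand, is chr6:112947337-112947366.
Foxc1: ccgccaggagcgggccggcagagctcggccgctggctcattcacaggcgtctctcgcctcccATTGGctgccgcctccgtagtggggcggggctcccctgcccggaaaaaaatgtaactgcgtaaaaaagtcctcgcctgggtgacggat
Dab1: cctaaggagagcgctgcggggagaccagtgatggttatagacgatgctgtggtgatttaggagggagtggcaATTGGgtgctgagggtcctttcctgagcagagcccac
Srgap3: ctcctgtaggctACAATgtgtcagttgtta

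Both strands of each 300-base window around a RefSeq start were searched for ACAAT, the core of many SOX motifs, for the longer ACAAAG, and for CCAAT, the box bound by NF-Y. Srgap3 had 1 ACAAT, which 31.0% of all 32851 windows also held. ACAAAG, held by 18.7% of windows, was in none of the 4 windows of these genes (Dab1 has 2). CCAAT or its reverse complement ATTGG was in 37.4% of windows. It occurred 2 times in the Foxc1 window and 1 time in the upstream window of Dab1. The Foxc1 window was 67.3% G or C, the windows of Dab1 57.3% and 77.3% and that of Srgap3 54.7%, against a median of 52.7% over all windows. A match is a description of the letters, not of binding.

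Sox9 ranged from 35.8 to 49.3 RPKM in E11.5 controls and from 20.6 to 25.7 in Sox9null, and from 35.2 to 37.5 in E12.5 controls and 28.7 to 35.1 in Sox9cKO. An RPKM covers the whole gene, so reads from outside a deleted stretch count towards it. How far such reads make up the Sox9 levels of the mutants was not tested. The E11.5 libraries fell into 2 sets that cut across genotype. Control 1, control 3, Sox9null 3 and Sox9null 4 formed a set of 4, and control 2, Sox9null 1 and Sox9null 2 a set of 3. Pearson r of log2 levels was 0.979 to 0.989 within the sets and 0.938 to 0.966 between them, and the sources used here do not say what the sets stand for. Markers of limb bud mesenchyme (Prrx1, Twist1, Msx1 and 5 others, all listed) summed to between 300 and 351 RPKM in every library. By Y-linked genes, all 3 E12.5 controls were male and 2 of 3 Sox9cKO libraries female. The depth of the libraries is unknown, and their relative depths ranged from 0.815 to 1.24.

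Enpp2 was read at 9.645, 10.011 and 11.499 RPKM in the E11.5 controls and at 4.84, 5.61, 6.02 and 6.69 in Sox9null. At E12.5 it was read at 18.6, 18.5 and 19.9 in controls and at 12.2, 11.6 and 10.4 in Sox9cKO. Every mutant library was below every control of its stage. The group means were 10.4 ± 0.982 (SD, n = 3), 5.79 ± 0.774 (n = 4), 18.99 ± 0.788 (n = 3) and 11.4 ± 0.915 (n = 3). In the order of levels, Sox9null came lowest and the E12.5 controls highest, and the E11.5 controls and Sox9cKO, next to each other, overlapped.

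Foxc1 was read at 12.4, 15.6 and 14.7 RPKM in the E11.5 controls and at 9.95, 11.6, 8.94 and 8.88 in Sox9null. At E12.5 it was read at 26.9, 25.1 and 27.1 in controls and at 19.9, 17.3 and 17.3 in Sox9cKO. The 4 groups formed a ladder without overlap between neighbours. It ran from Sox9null (9.85 ± 1.28, n = 4) through E11.5 controls (14.2 ± 1.68, n = 3) and Sox9cKO (18.2 ± 1.54, n = 3) to E12.5 controls (26.4 ± 1.08, n = 3). Unlike Enpp2, Foxc1 was higher in every E12.5 mutant than in any E11.5 control.

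Dab1 had lower levels, with 3.08, 4.51 and 3.45 RPKM in the E11.5 controls and 2.1, 2.44, 2.02 and 2.09 in Sox9null. At E12.5 it was read at 5.27, 4.94 and 6.21 in controls and at 3.54, 3.35 and 3.02 in Sox9cKO. The means were 3.68 ± 0.741 (n = 3), 2.16 ± 0.188 (n = 4), 5.47 ± 0.658 (n = 3) and 3.3 ± 0.262 (n = 3). Mutants and controls of the same stage did not overlap, and Sox9cKO overlapped with the E11.5 controls, its neighbour in the order. Among the 3 E11.5 controls the highest Dab1 level was in control 2, the 1 control of the set of 3.

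Srgap3 was read at 3.57, 7.42 and 3.8 RPKM in the E11.5 controls and at 5.28, 4.98, 2.24 and 2.42 in Sox9null. At E12.5 it was read at 4.75, 5.09 and 5.17 in controls and at 3.53, 3.71 and 3.75 in Sox9cKO. The means were 4.93 ± 2.16 (n = 3), 3.73 ± 1.62 (n = 4), 5.0 ± 0.221 (n = 3) and 3.66 ± 0.122 (n = 3). At E12.5 the groups were tight and apart, while at E11.5 they overlapped and each of the groups was split. The high E11.5 libraries were control 2, Sox9null 1 and Sox9null 2, which are the set of 3.

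**Figure D1:**
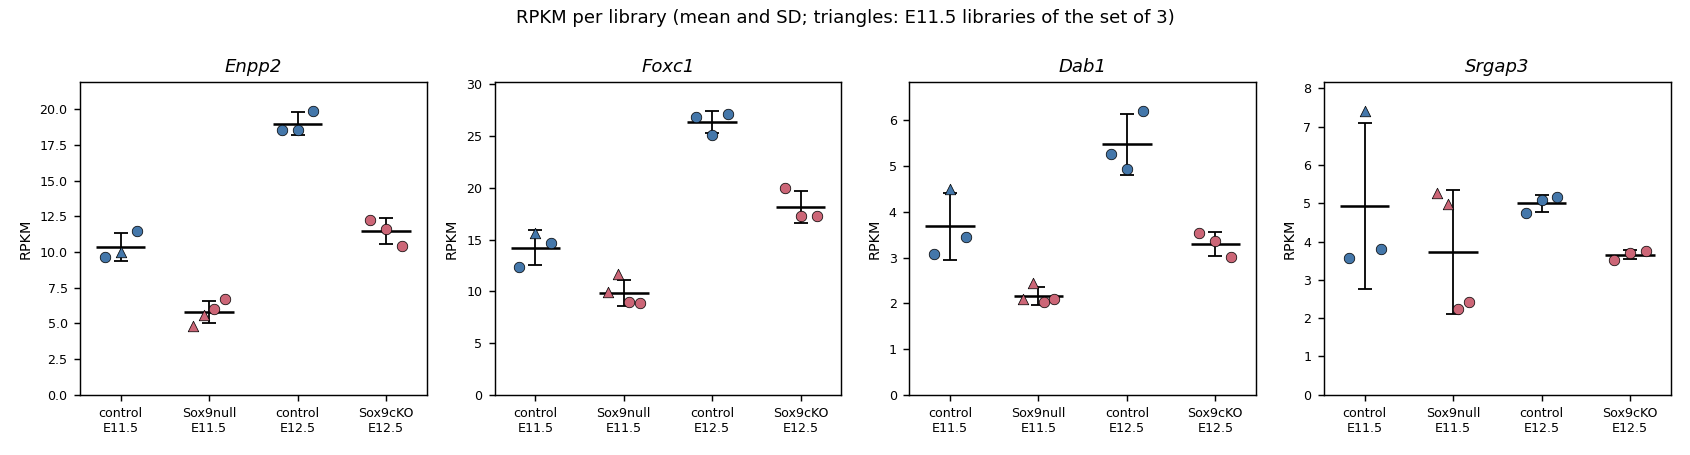
Level of each gene in RPKM (vertical axis, from 0) in the 13 libraries by group; points are libraries, horizontal lines means and bars SD, and triangles mark the set of 3 at E11.5. Enpp2, Foxc1 and Dab1 are lower in every mutant than in every control of the same stage, whereas for Srgap3 at E11.5 the triangles (4.98 to 7.42) lie above all the E11.5 circles (2.24 to 3.8).

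Mutant levels of the 4 genes were between 55.7% and 75.6% of control at E11.5 and between 60.3% and 73.2% at E12.5. Enpp2 stood at 55.7% and 60.3%, Dab1 at 58.7% and 60.4%, Foxc1 at 69.3% and 68.9%, and Srgap3 at 75.6% and 73.2%. On the log2(RPKM + 1) scale, which understates the change of low genes, the mutant minus control difference for Enpp2 was -0.75 (SE 0.094) at E11.5 and -0.69 (SE 0.1) at E12.5. It was -0.49 (SE 0.098) and -0.52 (SE 0.104) for Foxc1, and -0.56 (SE 0.114) and -0.59 (SE 0.122) for Dab1. For Srgap3 it was -0.33 (SE 0.258) and -0.36 (SE 0.276). In RPKM, the mutant minus control difference of Foxc1 was -4.36 at E11.5 and -8.2 at E12.5, at nearly the same percentage of a higher control level.

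The groups did not overlap for 3 of the 4 genes at E11.5, where 1.06% of all genes were lower without overlap, and for 4 of 4 at E12.5, where 8.5% were. Without overlap at both stages were 70 genes (0.543%), Enpp2, Foxc1 and Dab1 among them. Ordered from the largest decrease, the 4 genes held places 20 (Enpp2), 39 (Dab1), 58 (Foxc1) and 123 (Srgap3) among 12880 at E11.5. At E12.5 the places were 107, 156, 192 and 363. These counts and places come from the contrasts that chose the genes and carry no test.

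Within each E11.5 library set all 4 genes were lower in mutants, without overlap. The share of all genes lower without overlap within a set was not counted, and with so few libraries it can be large. These values are part of those that chose the genes and carry no test. In the set of 4 (2 controls, 2 mutants), Enpp2 stood at 60.1% of control, Foxc1 at 65.9%, Dab1 at 62.9% and Srgap3 at 63.2%. In the set of 3 (1 control, 2 mutants) the values were 52.2%, 69.1%, 50.3% and 69.1%. For Srgap3, the control mean was 3.69 RPKM in the set of 4, against 7.42 in the other set, and the mutant means were 2.33 and 5.13. Its log2 difference at E11.5 was -0.49 and -0.46 within the sets, against -0.33 over all E11.5 libraries. That pooled value ranged from -0.49 without Sox9null 1 or control 1 to -0.05 without control 2, and it was -0.175 without Sox9null 3 and -0.2 without Sox9null 4. It was below 0 whichever E11.5 library was left out, but without control 2 it was near 0 (-0.053, SE 0.244). Leaving out an E12.5 library could not change it. As a value that chose the gene it carries no test.

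**Figure D2:**
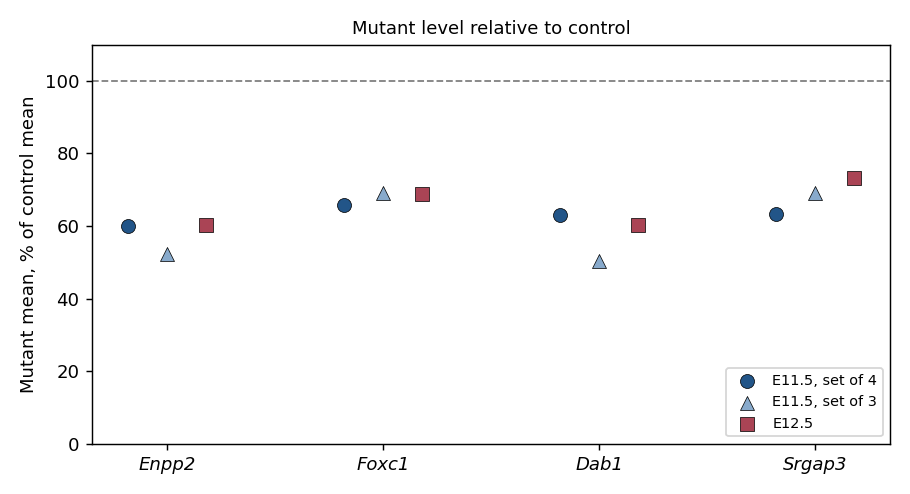
Mutant mean as a percentage of the control mean (vertical axis, from 0; dashed line at 100) for each gene, within the E11.5 set of 4 (circles), within the E11.5 set of 3 (triangles) and at E12.5 (squares). All points lie between 50.3% and 73.2%, Srgap3 included once its E11.5 libraries are compared within sets.

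Sex could be matched only in part. At E11.5 the females were controls 2 and 3 and Sox9null 1, 2 and 4. Of these, control 2, Sox9null 1 and Sox9null 2 were of the set of 3. The males, control 1 and Sox9null 3, were of the set of 4. Sex and library set were thus not separated. Among female E11.5 libraries (2 controls, 3 mutants) the log2 differences were -0.81 for Enpp2, -0.54 for Foxc1, -0.63 for Dab1 and -0.33 for Srgap3. The 1 male mutant against the 1 male control gave -0.6, -0.43, -0.43 and -0.5. At E12.5 the 1 male mutant against the 3 male controls gave -0.8, -0.58, -0.68 and -0.34, with no female control to compare.

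Markers of other cell types also differed between mutants and controls, but not all in the same direction or at both stages. Cartilage markers (Col2a1, Acan, Matn1 and 9 others, 12 of 12 listed) summed to 143 to 198 RPKM in E11.5 controls, 88.3 to 111 in Sox9null, 283 to 377 in E12.5 controls and 146 to 207 in Sox9cKO. Their median log2 difference in mutants was -0.67 at E11.5 (11 of 12 below 0) and -1.22 at E12.5 (12 of 12). None was at 0 throughout a group, while Acan, Matn1, Matn4, Lect1 and Cytl1 had a mean under 0.5 RPKM in at least 1 group. Markers of the joint interzone and perichondrium (6 of 7 listed, Gdf5 and Wnt9a among them) summed to 73.7 to 85.8, 65.0 to 76.1, 134 to 153 and 90.2 to 115 RPKM in the same order of groups. The median log2 difference of these joint markers in mutants was 0.02 at E11.5 (3 above and 3 below 0) and -0.37 at E12.5 (6 of 6 below 0). Erythroid markers (7 of 8 listed) summed to 774 to 896, 794 to 1410, 589 to 639 and 809 to 1010 RPKM, and all 7 were above 0 in the mutant minus control difference at both stages. The part of cartilage, joint and blood cells in the levels of the 4 genes was not tested. In whole limb buds, fewer cells of a type and less RNA per cell cannot be told apart.

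Between E11.5 and E12.5, a comparison that did not choose the genes, Enpp2, Foxc1 and Dab1 rose in controls and again in mutants. Enpp2 reached 183% of its E11.5 level in controls and 198% in mutants, Foxc1 185% and 184%, and Dab1 149% and 153%. In the limma fit over all genes, 3 of the 4 genes thus passed as higher in controls, where 16.5% of all genes did, and the same 3 in mutants, where 14.5% did. Groups of the 2 stages did not overlap for these 3 genes, in controls or in mutants. That was so for 32.6% of all genes in controls and 23.7% in mutants in the upward direction.

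The log2 change of Enpp2 was 0.82 (SE 0.1, 95% interval 0.6 to 1.03, limma adjusted p = 0.000603) in controls and 0.88 (SE 0.094, 0.67 to 1.08, limma adjusted p = 0.00054) in mutants. That of Foxc1 was 0.85 (0.62 to 1.08, limma adjusted p = 0.000603) and 0.82 (0.61 to 1.04, limma adjusted p = 0.00104). These rises placed Enpp2 at 389 and Foxc1 at 357 from the largest among 12880 genes in controls, and at 177 and 208 in mutants. For both genes the controls and the mutants changed by nearly the same amount, and the difference between those changes was not tested, since it is made of the contrasts that chose the genes.

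Dab1 rose by 0.47 (0.21 to 0.74, limma adjusted p = 0.0173) in controls and by 0.45 (0.2 to 0.69, limma adjusted p = 0.0207) in mutants. This smaller change did not pass under every alternative. In controls it did not pass when compared with the set of 3 alone (0.23, limma adjusted p = 0.233) or after quantile normalization (0.3, limma adjusted p = 0.0782), and in mutants it did not pass after quantile normalization (0.24, limma adjusted p = 0.13). It was also lost when 1 library was left out, in controls without E11.5 control 1 (limma adjusted p = 0.0694), E12.5 control 1 (0.0507) or E12.5 control 3 (0.0761), and in mutants without Sox9cKO 1 (0.0814) or 2 (0.0789).

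Srgap3 did not pass in either genotype. Its log2 change was 0.07 (-0.53 to 0.68, limma adjusted p = 0.869) in controls and 0.05 (-0.52 to 0.61, limma adjusted p = 0.913) in mutants. The direction depended on the E11.5 libraries used. Against the set of 4, Srgap3 was higher at E12.5 by 0.36 in controls (limma adjusted p = 0.0101) and 0.49 in mutants (limma adjusted p = 0.0032), and against the set of 3 it was lower, at -0.49 (limma adjusted p = 0.00581) and -0.39 (limma adjusted p = 0.00368). The exact two-sided permutation test over libraries gave p = 0.1 in controls and p = 0.0571 in mutants for Enpp2, Foxc1 and Dab1, the smallest these group sizes allow, and p = 1.0 and p = 0.743 for Srgap3.

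**Figure D3:**
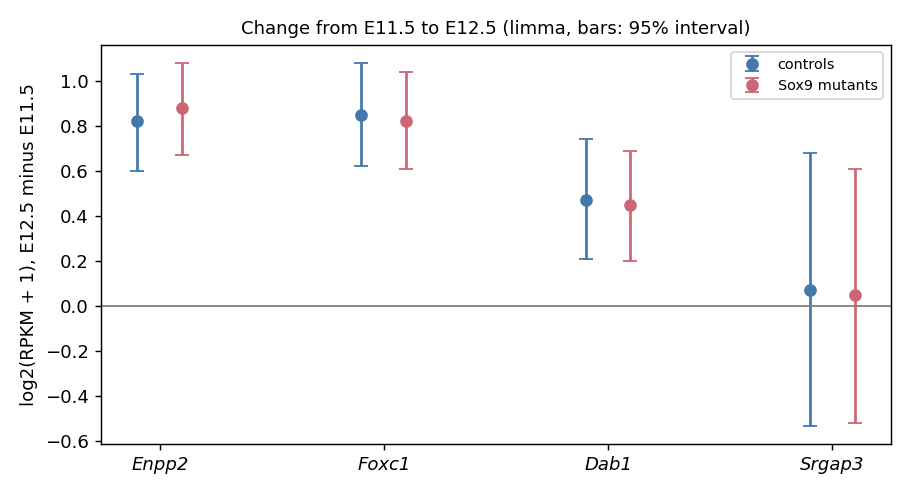
Change from E11.5 to E12.5 in log2(RPKM + 1) (vertical axis) for each gene in controls (blue) and Sox9 mutants (red); points are limma estimates over 13 libraries and bars 95% intervals. The intervals of Enpp2, Foxc1 and Dab1 lie above 0 in both genotypes, and those of Srgap3 (-0.53 to 0.68 and -0.52 to 0.61) span 0.

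Over all genes, the stage change passed for 2126 genes in the upward and 668 (5.19%) in the downward direction in controls, and for 1865 and 674 (5.23%) in mutants. Of the genes that passed, 76.1% went upward in controls and 73.5% in mutants. This share was 55.4% and 55.6% after quantile normalization and 54.4% and 52.1% after median ratio scaling. Enpp2 and Foxc1 passed as higher under both of these. The mutant contrasts passed for 7 genes (0.0543%) at E11.5, all lower, and for 25 (0.194%) at E12.5, of which 18 (0.14%) were lower.

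Of the LPA receptors, which receive the product of autotaxin, Lpar1, Lpar2, Lpar4 and Lpar6 were listed and Lpar3 and Lpar5 were not. Lpar1 was the most abundant, with means of 56.4 and 55.3 RPKM in E11.5 controls and Sox9null and 50.8 and 54.1 in E12.5 controls and Sox9cKO. Lpar4 had means of 22.8, 22.7, 27.1 and 26.3 in the same order, Lpar6 27.5, 28.1, 26.8 and 29.6, and Lpar2 11.8, 12.0, 9.78 and 10.8. The mutant minus control log2 differences of these 4 receptors lay between -0.04 and 0.14, and none passed (limma adjusted p = 1.0 for each, at both stages). At E12.5 Lpar1 (53.8 to 54.4 RPKM against 49.8 to 51.5) and Lpar6 were higher in mutants without overlap, and Lpar4 was lower. Of all genes, 8.5% were lower without overlap there, and the share that was higher is not given here.

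Other genes of LPA signalling and lysophospholipid turnover numbered 24 of 26 listed. In the limma fit none passed in the mutant contrasts, with medians of 0.02 at E11.5 and 0.03 at E12.5 beside 0.01 over all genes. At an unadjusted p under 0.05 there were 0 at E11.5 and 3 at E12.5, where 363 (2.82%) and 697 (5.41%) of all 12880 genes were. Those 3 were Enpp1, a related enzyme that makes pyrophosphate, and Ctgf and Cyr61, secreted matricellular proteins and known targets of YAP. Their E12.5 log2 differences were -0.54, -0.39 and -0.43 (limma adjusted p = 0.256, 0.392 and 0.31). Over the stages, 4 of 24 rose and 2 fell in controls, where 16.5% of all genes rose and 5.19% fell. These counts are near those over all genes, but they depended on the scaling. After median ratio scaling 6 of 24 rose and 7 fell in controls, beside 1859 and 1560 of all 12880 genes. After quantile normalization 4 rose and 5 fell, beside 1477 and 1187. Those that rose without further scaling were Enpp1 (0.66, limma adjusted p = 0.00756), Ctgf (0.56, limma adjusted p = 0.00687), Cyr61 (0.76, limma adjusted p = 0.00179) and the phospholipase Pla2g4a (0.58, limma adjusted p = 0.00422). Rhoa (-0.17), a GTPase downstream of LPA receptors, and Yap1 (-0.26), the coactivator YAP, fell. Enpp1 was lost after quantile normalization. In mutants, where 14.5% of all genes rose and 5.23% fell, 3 rose (Ppap2a 0.36, Enpp3 0.36, Gna13 0.14) and 3 fell (Lcat -0.3, Arhgef1 -0.37, Yap1 -0.19). Of these 6, Enpp3 was lost after quantile normalization, and Enpp3, Gna13 and Arhgef1 after median ratio scaling. Yap1 fell in both genotypes.

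Foxc2, the close paralogue of Foxc1, was read at 3.77 to 5.37 RPKM in E11.5 controls, 3.67 to 4.76 in Sox9null, 6.87 to 9.68 in E12.5 controls and 3.81 to 5.29 in Sox9cKO. In mutants it was -0.13 at E11.5, with overlap, and -0.64 at E12.5 without overlap, which did not pass (limma adjusted p = 1.0 and 0.183). It rose from E11.5 to E12.5 in controls (0.64, limma adjusted p = 0.0128) and did not pass in mutants (0.12, limma adjusted p = 0.552), and the difference between these changes was not tested. Foxc1 was the more abundant of the 2 paralogues in every group.

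Other forkhead factors of mesenchyme and their partners numbered 16 of 20 listed. None passed in the mutant contrasts of the limma fit, with medians of -0.02 and -0.08, and at an unadjusted p under 0.05 there were 1 at E11.5 (Cxcl12, a chemokine) and 3 at E12.5 (Foxc2, Foxf2, Cxcl12), beside 2.82% and 5.41% of all genes. In controls 5 of 16 rose with stage and 1 fell, beside 16.5% and 5.19% of all genes. Those that rose were Foxc2, Foxp1 (0.51), Foxp2 (0.63), Tbx1 (0.82) and Pthlh (1.66, limma adjusted p = 0.00441), which codes for the parathyroid hormone-related protein of growth cartilage. Foxm1, a factor of dividing cells, fell (-0.31). In mutants 1 of 16 rose, beside 14.5% of all genes, and it was Pthlh (1.34, limma adjusted p = 0.0122). Its mean went from 0.924 to 5.17 RPKM in controls and from 0.817 to 3.95 in mutants. The calls of Foxp1 and Foxp2 were lost after quantile normalization and after median ratio scaling, and that of Pthlh in mutants after quantile normalization.

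Reln, which codes for the ligand reelin, was not listed. The table leaves out genes with a mean under 3 RPKM in all groups. Of the receptors that DAB1 binds, Vldlr was read at means of 1.9, 2.23, 3.79 and 3.07 RPKM and Lrp8 at 6.18, 6.22, 5.21 and 5.6, in the order E11.5 controls, Sox9null, E12.5 controls, Sox9cKO. In mutants the log2 differences were 0.15 and -0.23 for Vldlr and 0.01 and 0.09 for Lrp8, and none passed (limma adjusted p = 1.0). Vldlr rose with stage in controls (0.72, limma adjusted p = 0.00283) and did not pass in mutants (0.33, limma adjusted p = 0.0667). The difference between these 2 changes of Vldlr was not tested.

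Of the other reelin signalling genes, 24 of 25 were listed and none passed in the mutant contrasts, at an adjusted p or at an unadjusted p under 0.05 (0 at both stages), with medians of -0.01 and 0.02. With stage, 3 of 24 rose and 2 fell in controls, and 3 rose and 1 fell in mutants, beside 16.5% and 5.19% of all genes in controls and 14.5% and 5.23% in mutants. The counts are thus near or below those over all genes. Vldlr, Fyn (0.22), the kinase that phosphorylates DAB1, and Pik3r1 (0.46), a regulatory subunit of PI3-kinase, rose in controls. Akt1 (-0.19), a kinase downstream of it, and the actin-severing Cfl1 (-0.4) fell there, and the direction of Cfl1 changed after quantile normalization. In mutants Fyn (0.2), Cul5 (0.15) and Cdk5r1 (0.42) rose and Akt1 (-0.27) fell. Fyn lost its calls after both scalings, Cul5 too, and Akt1 in controls after quantile normalization.

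Of the SLIT-ROBO GTPase-activating proteins, Srgap2 was the most abundant in every group. Srgap2 had means of 18.3, 18.1, 15.3 and 15.2 RPKM and Srgap1 of 6.76, 6.55, 4.31 and 4.13 in the same order of groups. The mutant log2 differences were -0.02 and 0.0 for Srgap2 and -0.06 and -0.05 for Srgap1, and none passed (limma adjusted p = 1.0). At E11.5 both split by library set in the same way as Srgap3. Srgap1 ranged from 4.08 to 5.78 RPKM in the set of 4 and from 7.69 to 10.2 among the other 3, and Srgap2 from 14.8 to 16.9 and from 20.3 to 22.1. For Srgap3 the ranges were 2.24 to 3.8 and 4.98 to 7.42.

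Genes of the ligands and receptors split too. The ligand Slit3 ranged from 18.2 to 20.1 RPKM in the set of 4 and from 27.7 to 29.0 among the other 3, and Slit2 from 5.57 to 6.81 and from 7.23 to 12.1. The receptor Robo1 ranged from 25.7 to 30.8 and from 32.6 to 35.8, and Robo2 from 16.7 to 19.1 and from 21.2 to 25.8. Over all genes, 2095 (16.3%) were higher in the set of 3 without overlap and 5281 (41.0%) lower, so the split is not particular to SLIT-ROBO genes. Lrp8 (6.52 to 6.83 RPKM against 5.61 to 6.1) and Lpar2 were also higher in the set of 3 without overlap. Lpar1 (49.3 to 51.8 against 58.6 to 61.7), Lpar4 and Lpar6 were lower there. The sets overlapped for Enpp2, Foxc1, Dab1, Foxc2 and Vldlr. Of the other SLIT-ROBO genes, 27 of 29 were listed, none passed in the mutant contrasts in the limma fit (0 at an unadjusted p under 0.05 at both stages), and the medians were -0.02 and 0.0. With stage, 1 of 27 rose and 3 fell in controls, and 1 rose and 2 fell in mutants, beside the same shares of all genes. The cytoskeletal Ablim1 (0.29) rose in controls and Rhoa, the kinase Abl1 (-0.2) and the heparan sulfate proteoglycan Gpc1 (-0.21) fell, and in mutants Usp33 (0.13), a deubiquitinase, rose and Abl1 (-0.15) and Gpc1 (-0.18) fell. After quantile normalization these calls were lost, that of Rhoa excepted, and median ratio scaling removed those of Ablim1 in controls and of Abl1 and Usp33 in mutants. All 4 pathway lists also gave 0 calls in both mutant contrasts after either scaling.

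**Figure D4:**
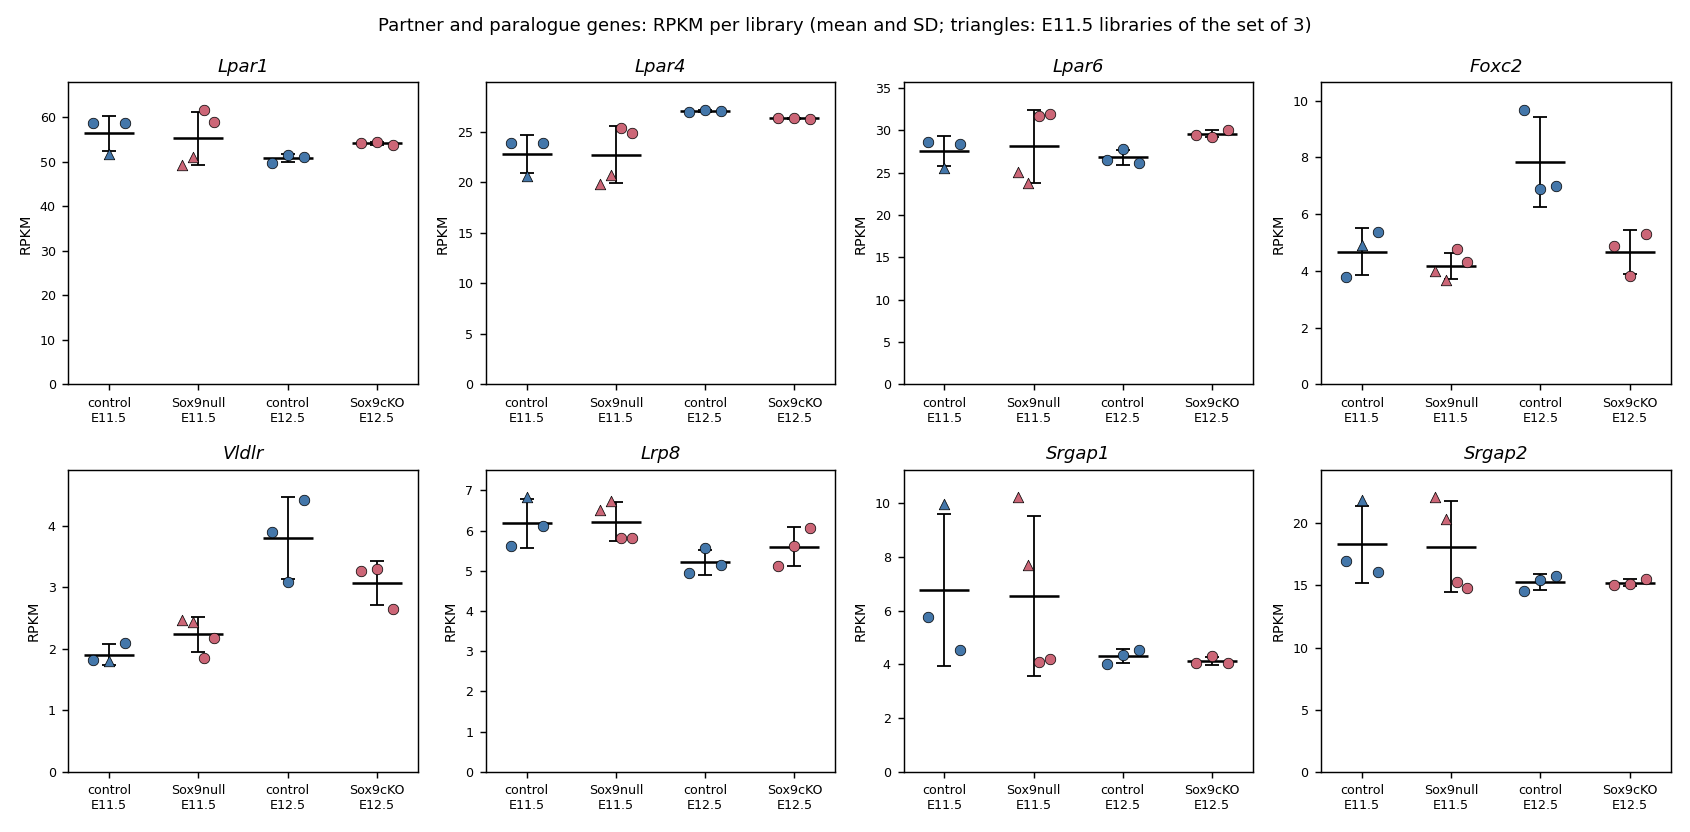
Level in RPKM (vertical axes, from 0) of receptors and paralogues of the 4 genes in the 13 libraries by group; points are libraries, lines means and bars SD, and triangles mark the E11.5 set of 3. The LPA receptors overlap or lie close between mutants and controls, and Foxc2 is lower in Sox9cKO (3.81 to 5.29) than in E12.5 controls (6.87 to 9.68). At E11.5 all panels but Foxc2 and Vldlr split by library set. In the set of 3, Srgap1, Srgap2 and Lrp8 are higher and Lpar1, Lpar4 and Lpar6 lower.

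The genes whose levels most resembled those of the 4 genes over the 13 libraries were ranked by Pearson r of log2(RPKM + 1). For Enpp2 they were Fzd9 (r = 0.986), a Wnt receptor, Sfrp2 (0.985), a secreted Wnt inhibitor, Gal3st1 (0.983), Rhoj (0.967) and the cartilage collagen gene Col9a3 (0.964). For Dab1 they were Sox6 (r = 0.966), a SOX factor that acts with SOX9 in cartilage, the cartilage matrix gene Matn4 (0.957), Sfrp2 (0.955), Col9a2 (0.953) and Fzd9 (0.95). For Foxc1 they were Stard13 (r = 0.989), Ypel2 (0.988), the myelin protein gene Pmp22 (0.983), Scrn1 (0.98) and Col8a1 (0.978). The closest to Srgap3 were Sema6a (r = 0.972), Phlpp1 (0.95), Tiam1 (0.949), Myo18a (0.942) and the proteoglycan gene Vcan (0.938). Sfrp2 is also one of the joint markers, and Col9a2, Col9a3 and Matn4 are cartilage markers used above. These values include the differences between the 4 groups and, at E11.5, between the sets, and are a description.

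Between the 4 genes, r over the 13 libraries was 0.947 for Enpp2 and Foxc1, 0.933 for Enpp2 and Dab1 and 0.931 for Foxc1 and Dab1. With Srgap3 it was lower, at 0.294 for Enpp2, 0.466 for Foxc1 and 0.578 for Dab1. After the group means were taken out, r was -0.0153 for Enpp2 and Foxc1 and 0.157 for Enpp2 and Dab1. It was then 0.759 for Foxc1 and Dab1, 0.695 for Foxc1 and Srgap3, 0.619 for Dab1 and Srgap3 and -0.581 for Enpp2 and Srgap3. Libraries of a group thus varied alike in Foxc1, Dab1 and Srgap3 and otherwise in Enpp2, and the library sets are part of these values.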

How the data were processed

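RNA was extracted from mouse limb buds with the RNeasy Mini Kit and sequenced by a standard Illumina protocol, per the labels' protocols. CASAVA 1.8 and the mm10 genome build are named in the submitters' processing notes. No aligner, counting, strand setting, annotation or normalization is named there. The authors listed a normalized RPKM per library, for genes that reached a mean of 3 RPKM in any group, per the file headers. Total depth is unknown. Relative depths come from the steps between low values. By library, 79.4% to 89.7% of the low values of short genes lay near a whole multiple of the step. Normalized RPKM are not read counts, so no count model was used. The deposited table's 9 columns of group means, SDs and p-values were not used.

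Levels were analysed as log2(RPKM + 1) in limma 3.58.1 (R 4.3.3; trend, robust), with a mean for each of 4 groups over 13 libraries. A filter of 1 RPKM in 3 libraries removed none of 12880 genes. Tests were two-sided with Benjamini-Hochberg adjustment across all genes, and a gene passed at an adjusted p under 0.05. The fit was tested on simulated data. Exact permutation tests used scipy 1.17.1. The E11.5 sets come from average-linkage clustering. Embryos of a group are separate samples, per the file headers.

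The 4 genes, the gene lists and the marker lists were chosen with earlier results of these data known. The text names the 4 genes, their receptors, ligands and paralogues, every gene of the 4 pathway lists that passed in any comparison, and the 5 genes most like each of the 4 by Pearson r, leaving out predicted genes. Cxcl12 and Foxf2 were named after their values were seen. Markers of endothelium, ectoderm, muscle, nerve and macrophages were also summed. In the mutant contrasts 7 of 7 endothelial genes were above 0 at both stages, with medians of 0.08 and 0.1, and the medians were 0.21 and -0.2 for ectoderm, 0.17 and -0.12 for muscle, -0.27 and -0.44 for nerve, 0.06 and -0.03 for macrophages, -0.06 and 0.02 for mesenchyme, 0.02 and -0.37 for joint and 0.35 and 0.64 for erythroid markers. Alternatives changed the pseudocount, filter, scaling, samples, blocks and model terms, 1 at a time. Coordinates are from GENCODE M21, with 12715 gene identifiers matched.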

Additional observations from a re-analysis of the deposited data

How the results depend on the processing

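The 4 genes stayed lower in mutants than in controls, with no test, under all 25 alternatives at E11.5 and 23 at E12.5 (24 and 22 for Dab1, which a filter of 5 RPKM left out). Alternatives that changed only the filter, the model of the spread or libraries of the other stage could not alter these differences. The differences also chose the genes, so their direction under the alternatives is a description. Of these differences, a pseudocount of 0.1 moved Dab1 to -0.73 at E11.5 and -0.71 at E12.5 and Srgap3 to -0.44 at E12.5. The set of 3 alone moved Dab1 to -0.76. Sex as a term moved Foxc1 to -0.63 and Srgap3 to -0.61 at E12.5. At E11.5 all libraries of the set of 3 were female, so that term cannot be told apart from the library set. Male libraries alone gave -0.58 for Foxc1 and -0.34 for Srgap3 at E12.5, with 1 mutant. The rises of Enpp2 and Foxc1 with stage passed under all 24 alternatives in controls (Enpp2 0.71 to 0.88, Foxc1 0.72 to 0.97) and in mutants (0.76 to 1.0 and 0.7 to 0.95). Dab1 passed in 17 of 23 in controls and 19 of 23 in mutants. It did not pass after quantile normalization (0.30 and 0.24), in controls with 2 groups alone (0.475) or the set of 3 alone (0.228), or in mutants with a replicate block (0.435), and with 1 library left out it ranged from 0.382 to 0.598 in controls and 0.407 to 0.494 in mutants. Srgap3 turned negative after quantile normalization (-0.096 in controls, -0.072 in mutants), after median ratio scaling (-0.012 in mutants), with a replicate block (-0.087 in mutants) and against the set of 3 alone (-0.489 and -0.394), and passed against the set of 4 alone (0.357 and 0.486). With 1 library left out it ranged from -0.084 to 0.357 in controls and from -0.114 to 0.204 in mutants. It was below 0 without E11.5 control 1 (-0.084) or 3 (-0.048), or Sox9null 3 (-0.114) or 4 (-0.087). The cause of these shifts was not tested.

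Counts of genes that passed moved more. In the mutant contrasts they were 14 at E11.5 after median ratio scaling, 57 at E12.5 after quantile normalization, 41 and 105 with a term for the library set, and 27 and 1 at E11.5 in the set of 4 and the set of 3. With 2 groups alone, limma passed 0 genes at E11.5 (236 at an unadjusted p under 0.05) and 922 in the stage change of mutants. The stage change passed for 5546 genes in controls and 4498 in mutants against the set of 4, and 6403 and 7502 against the set of 3. With 1 library left out the counts were 1379 to 3374 (stage, controls), 707 to 2976 (stage, mutants), 2 to 8 (E11.5) and 9 to 45 (E12.5). Samples with the same replicate number deviated together in some pairs and not in others (at E11.5, r = 0.635 and 0.441 for mutant and control 2 and 3 and -0.435 for 1), so the numbers were not taken to pair the samples, and the replicate block gave 2604, 2438, 5 and 14 genes. At E11.5 mutant and control 2 were both of the set of 3, and mutant and control 3 both of the set of 4. Mutant and control 1 were of different sets. Unknown depth limits what can be said of genes at low levels such as Dab1 and Srgap3.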
